A study of Nothobranchius furzeri and Iconisemion striatum and Callopanchax occidentalis with 18 samples.

Results

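Embryos of 3 American killifish species were compared with embryos of 4 African killifish species, by the mature microRNAs (miRNAs) counted in their small RNA. The species were grouped by the continent on which they live, which is background knowledge and not a label of the samples. The American species are rivulids and the African ones nothobranchiids, also background knowledge, so continent and family cannot be told apart. Of the 18 libraries of the series, from 8 species, 17 libraries of 7 species were used. The American group held Nematolebias papilliferus (labelled annual, in diapause), Austrofundulus leohoignei (labelled non-annual, not in diapause) and Rivulus cylindraceus (labelled non-annual, not in diapause), with 1 library each. The genus Austrofundulus is usually described as annual, so the label of A. leohoignei is in doubt; life styles below are those of the labels. The African group held Nothobranchius furzeri (annual), Callopanchax occidentalis (annual, in diapause, 1 library), Aphyosemion striatum (Iconisemion striatum in the organism field; non-annual, not in diapause, 4 libraries) and Epiplatys dageti monroviae (non-annual, not in diapause, 1 library). The 8 N. furzeri libraries were 3 of strain MZM0410 not in diapause and 5 in diapause, from strains MZM0403 (1 library), MZM0410 (2 libraries, of which 1 had been 2 weeks in diapause) and the cross GRZ x MZZW (1 month and 2 months in diapause). No strain was given for the other species, and all 17 libraries were made from whole embryos at the somite stage. Aplocheilus lineatus, a non-annual Asian species with 1 library, was kept out of the main fits and is given as a further value. An alternative added it to the African species.

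A miRNA is cut from a hairpin precursor whose 5′ arm (5p) and 3′ arm (3p) can each give a mature RNA of its own, usually at unequal levels. The mature miRNA guides repression of messenger RNAs that pair with its first bases, so related miRNAs with the same start form families. In fish embryos the miR-430 family is known for clearing maternal messenger RNAs, and the miR-10 family lies within the Hox clusters that pattern the body axis. Annual killifish live in seasonal pools, and their embryos can arrest in diapause; both continents have annual and non-annual species.

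The table listed 291 mature miRNAs, of which each library held between 197 and 249. Each species entered as the sum of its libraries, so p-values measure the spread between 3 and 4 species. The summed miRNA counts were 926161 in N. papilliferus, 1090382 in A. leohoignei and 371908 in R. cylindraceus, against 17885352 in N. furzeri, 758683 in C. occidentalis, 5702801 in A. striatum and 524382 in E. dageti monroviae. Of the reads of 18 to 33 nt, between 3.78% and 28.5% lay on a miRNA in the American species and between 1.43% and 55.7% in the African species. By the names of their read files, all 3 American libraries came from lane 1. That lane also held C. occidentalis, E. dageti monroviae, 2 N. furzeri libraries and 1 A. striatum library. The 2 N. furzeri libraries were both in diapause. The names of the other read files give pools 2 and 3. Whether these were separate sequencing runs is not stated, and run below means only these groups of file names. Kinship among the species was not modelled, and fewer cells of a type and less of a miRNA per cell cannot be told apart in whole embryos.

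The bulk of the miRNA counts belonged to 3 families, and each family's share overlapped between the continents. The miR-430 family took 1.39% of counts in N. papilliferus (95% Wilson interval 1.37 to 1.42%), 1.91% in A. leohoignei (1.88 to 1.94%) and 65.5% in R. cylindraceus (65.4 to 65.7%). In the African species it took 6.34% in N. furzeri, 0.840% in C. occidentalis (0.820 to 0.861%), 42.3% in A. striatum and 16.3% in E. dageti monroviae (16.2 to 16.4%). Its share ran from 1.87 to 20.9% over the 8 N. furzeri libraries and from 33.9 to 64.1% over the 4 of A. striatum. R. cylindraceus was the highest of the 7 species and the other American species lay below 3 of the 4 African ones. The American and African means of 22.9% ± 36.9 (SD, n = 3) and 16.4% ± 18.4 (n = 4) differed by less than the spread between species (two-sided exact permutation p = 0.743). Without R. cylindraceus the difference in mean share changed sign: it was 6.51 percentage points with that species and -14.8 points without it.

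The miR-10 family made up 85.5% of counts in N. papilliferus (85.5 to 85.6%), 48.6% in A. leohoignei (48.5 to 48.7%) and 5.98% in R. cylindraceus (5.90 to 6.05%). Its African shares were 81.6% in N. furzeri, 92.4% in C. occidentalis (92.4 to 92.5%), 42.6% in A. striatum and 49.0% in E. dageti monroviae (48.8 to 49.1%). The N. furzeri libraries ran from 64.5 to 92.6% and the A. striatum libraries from 22.1 to 56.0%. The 3 species labelled annual had the 3 highest shares, and R. cylindraceus lay below the other 6 species. The difference between the means was -19.7 points (exact permutation p = 0.514) and 0.656 points without R. cylindraceus. The intervals cover counting error only.

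The miR-25, miR-92 and miR-363 family, with members in the miR-17-92 clusters that promote growth in mammals, took 4.08% (4.04 to 4.12%), 24.2% (24.1 to 24.2%) and 15.3% (15.2 to 15.4%) of counts in N. papilliferus, A. leohoignei and R. cylindraceus. It took 3.55%, 1.96% (1.93 to 1.99%), 4.28% and 14.3% (14.2 to 14.4%) in N. furzeri, C. occidentalis, A. striatum and E. dageti monroviae. A. leohoignei was the highest of the 7 species, and the groups overlapped (exact permutation p = 0.2). Its most abundant member was miR-92a-3p, with 31254, 250471 and 53515 counts in the same 3 American species.

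**Figure D1:**
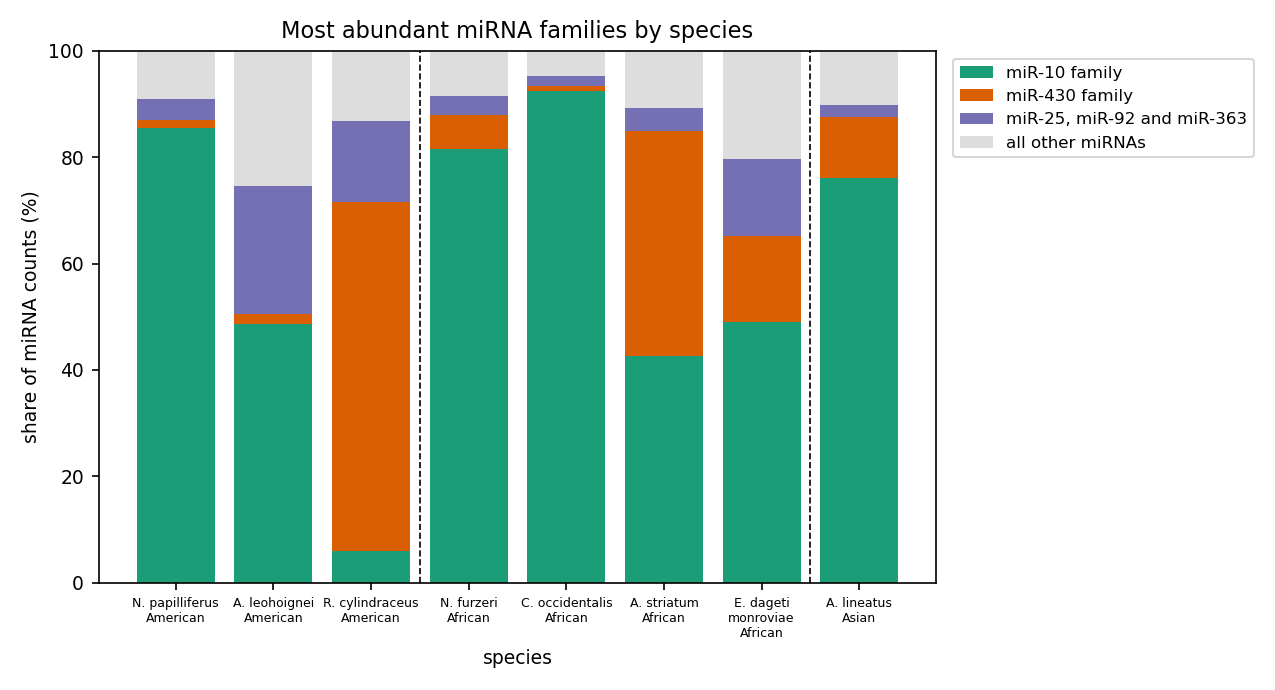
Share of all miRNA counts (%, y axis) taken by the miR-10 family, the miR-430 family, the miR-25, miR-92 and miR-363 family and all other miRNAs in each species (x axis), counts summed per species; dashed lines separate the 3 American species, the 4 African species and A. lineatus. R. cylindraceus has the largest miR-430 share among the 8 species (65.5%) and A. leohoignei the largest miR-92 share (24.2%), while N. papilliferus has a miR-10 share (85.5%) between those of N. furzeri and C. occidentalis.

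Over the 169 miRNAs that passed a filter on low counts, levels were scaled by TMM, which sets the scale by the bulk of the miRNAs, so that the resulting CPM are no longer plain shares of a library. Spearman's rho of log2 CPM across these miRNAs, which are not independent of each other, was 0.677 to 0.800 between the American species, 0.756 to 0.863 between the African species and 0.593 to 0.857 between an American and an African species. The highest value between the continents was that of N. papilliferus with N. furzeri (0.857), both of which include diapause libraries. N. papilliferus had a higher rho with N. furzeri, A. striatum (0.841) and C. occidentalis (0.840) than with either American species (0.800 with A. leohoignei and 0.756 with R. cylindraceus). The lowest was R. cylindraceus with C. occidentalis (0.593). These values are descriptions, and pairs that share a species are not independent.

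The comparison of the 3 American with the 4 African species called no miRNA at an adjusted p under 0.05: edgeR's quasi-likelihood test called 0 of 169 (0%). At an unadjusted p under 0.05 there were 21 (12.4%), of which 11 were higher (6.51%) and 10 lower (5.92%) in the American species. DESeq2's Wald test called 11 and had 25 at an unadjusted p under 0.05, and limma on log2 CPM called 0 and had 15. The 11 of DESeq2 were miR-181a-3p, miR-221-5p, miR-29a, miR-727-5p, miR-727-3p and miR-737-5p, higher in the American species, and miR-92b-3p, miR-146a, miR-181c-5p, miR-430a-5p and miR-733, lower in them. The species of the continents did not overlap for 19 miRNAs (11.2%), 10 higher (5.92%) and 9 lower (5.33%) in the American species. The filter asked for a minimum level in at least 3 species, so a miRNA could pass through 1 continent alone. miR-727-5p, miR-727-3p and miR-155 passed only through the American species, and miR-430a-5p and miR-733 only through African ones. For these the lack of overlap and the low p are partly set by the filter. Of those 19, 14 averaged at least 50 CPM and are described first, 7 in each direction. The separation depended on the scaling and on the libraries used: with library totals only 9 of these 14 overlapped (miR-737-5p, miR-15b-5p, miR-184, miR-27b-3p, miR-20a-3p, miR-19d-3p, miR-126a-5p, miR-126b-5p and miR-128-3p). Within lane 1, 7 overlapped (miR-430a-5p, miR-184, miR-27b-3p, miR-19d-3p, miR-126a-5p, miR-126b-5p and miR-128-3p). The lane 1 subset leaves out all N. furzeri libraries not in diapause and most A. striatum counts. Run, diapause, strain and depth therefore cannot be told apart in it. The 4 that overlapped in neither were miR-181a-3p, miR-30c-5p, miR-92b-3p and miR-181c-5p, of which miR-181c-5p overlapped once 1 lane 1 library of N. furzeri was left out.

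**Figure D2:**
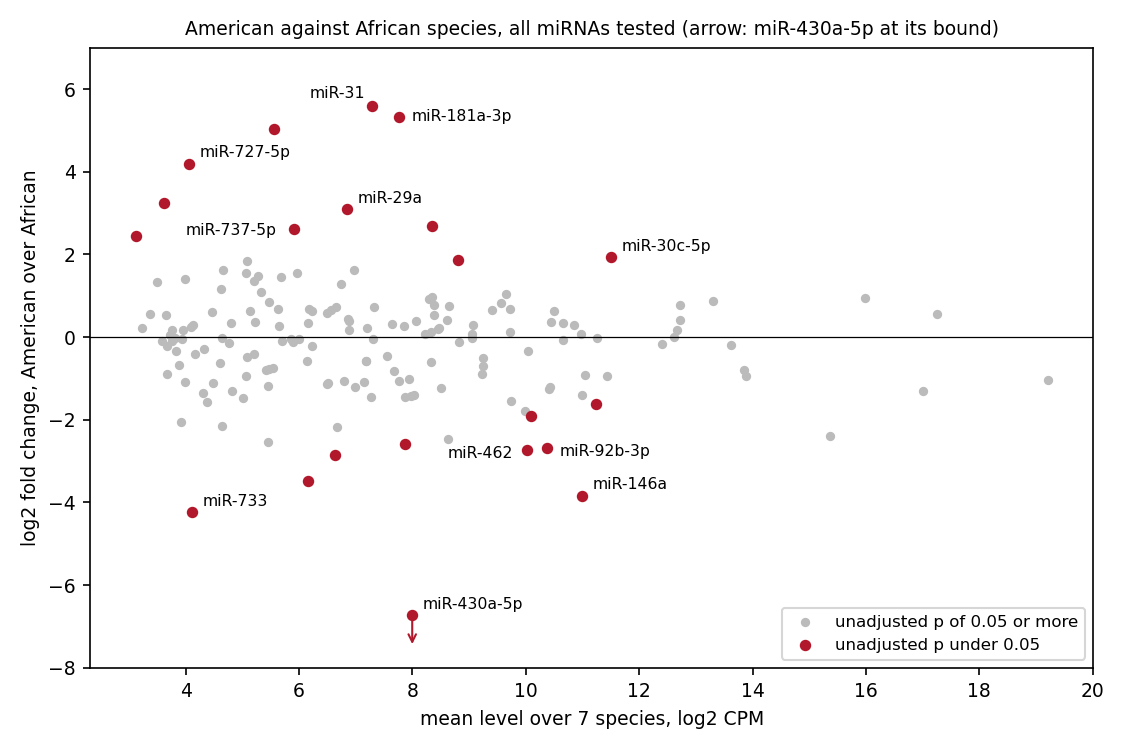
Log2 fold change, American over African species (y axis), against the mean level over the 7 species in log2 CPM (x axis) for the 169 miRNAs tested; red points have an unadjusted p under 0.05 (21 miRNAs) and the arrow marks miR-430a-5p, drawn at its bound of -6.73 since it had 0 counts in every American species. The 169 miRNAs lie around a median of -0.03, with 81 above (47.9%) and 88 below 0 (52.1%).

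The largest of the higher values was that of miR-181a-3p, an arm that is usually the minor product of a miR-181a hairpin, a family known in lymphocytes and in neurons. It had 329, 278 and 377 counts in N. papilliferus, A. leohoignei and R. cylindraceus, against 12 in N. furzeri, 0 in C. occidentalis, 5 in A. striatum and 49 in E. dageti monroviae. It averaged 493 CPM ± 400 (SD, n = 3) in the American and 12.2 CPM ± 22.9 (n = 4) in the African species. All 3 American species lay above all African ones, and E. dageti monroviae, at 46.6 CPM, stood apart from the other African species at 0 to 1.22 CPM. Its difference on the log2 scale was 5.33 (SE 1.58, edgeR adjusted p = 0.157, with a range of 0.00390 to 0.396 over the alternatives). Without E. dageti monroviae it was 8.97 and was called (adjusted p = 0.00390). Over the 8 N. furzeri libraries miR-181a-3p lay between 0 and 3.20 RPM, the library-scaled read count without TMM, and within lane 1 the log2 fold change was 5.14 (adjusted p = 0.236). The 3p arm listed for the other miR-181a hairpin, miR-181a-2-3p, chosen after its values were seen, ran the other way, at 494, 94.9 and 634 CPM in the American species, against 524, 525, 2052 and 1676 CPM in N. furzeri, C. occidentalis, A. striatum and E. dageti monroviae, with overlap (-1.55, SE 0.83, adjusted p = 0.529).

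miR-30c-5p, of a family expressed in many tissues, was among the more abundant miRNAs with no overlap. It had 3834, 5136 and 6115 CPM in N. papilliferus, A. leohoignei and R. cylindraceus, against 796, 2820, 700 and 979 CPM in N. furzeri, C. occidentalis, A. striatum and E. dageti monroviae (log2 fold change 1.93, SE 0.65, adjusted p = 0.174). C. occidentalis stood nearest to the American species. The lane 1 libraries were higher in RPM than those of other runs of the same species, with 977 against 467 RPM in N. furzeri and 1722 against 320.1 RPM in A. striatum; within lane 1 the log2 fold change was 1.78 (adjusted p = 0.280). The other abundant member of its list, miR-30e-5p, lay at -0.07 on the log2 scale (SE 0.69), and the list as a whole had 3 of 6 members above 0.

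miR-15b-5p, of the miR-15 and miR-16 family known to restrain the cell cycle, had 496, 684 and 1109 CPM in N. papilliferus, A. leohoignei and R. cylindraceus, against 104, 162, 236 and 330 CPM in N. furzeri, C. occidentalis, A. striatum and E. dageti monroviae (log2 fold change 1.87, SE 0.65, adjusted p = 0.186). Every American value exceeded every African one, while miR-16b, the most abundant member of this family here, overlapped (0.35, SE 0.54). The lane 1 libraries were higher in miR-15b-5p as well, at 216.1 RPM against 49.96 RPM in the other libraries of N. furzeri and 429.7 against 130.5 RPM in A. striatum. Within lane 1 its log2 fold change was 1.63 (adjusted p = 0.286). The part of the run in these values was not tested beyond the lane 1 comparison, which also changes diapause, strain and depth.

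miR-737-5p, a miRNA described mainly in fish, had 35.5, 215.8 and 88.8 CPM in N. papilliferus, A. leohoignei and R. cylindraceus, against 17.4, 28.3, 14.1 and 15.2 CPM in N. furzeri, C. occidentalis, A. striatum and E. dageti monroviae. The log2 fold change was 2.62 (SE 0.86, adjusted p = 0.172) and its range over the alternatives was 1.76 to 3.72. N. papilliferus, with 25 counts, and C. occidentalis, with 11, were the closest pair. miR-20a-3p, a minor arm of a miR-17-92 type cluster, had 54.0, 67.5 and 118 CPM in the American species in the same order, against 34.6, 18.03, 27.2 and 36.1 CPM in the African species (1.44, SE 0.75, adjusted p = 0.525).

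miR-19d-3p and miR-128-3p separated the continents by small margins. miR-19d-3p, of the miR-19 family that targets the tumour suppressor pten in mammals, had 1433, 1055 and 950 CPM in N. papilliferus, A. leohoignei and R. cylindraceus, against 503, 680, 368 and 665 CPM in N. furzeri, C. occidentalis, A. striatum and E. dageti monroviae (1.05, SE 0.55, adjusted p = 0.525). miR-128-3p, a brain-enriched miRNA, had 706, 1388.3 and 936 CPM in the American species in the same order, against 569, 649, 526 and 529 CPM in the African species (0.83, SE 0.55, adjusted p = 0.619). Within lane 1 the log2 fold changes were 0.68 and 0.47, over 1.5 times smaller, and with library totals only that of miR-128-3p was 1.62. Lane 1 libraries were higher than the other libraries of the same species. miR-19d-3p had 1410 against 196 RPM in N. furzeri and 718 against 197 RPM in A. striatum. miR-128-3p had 771 against 324 RPM in N. furzeri and 1654 against 186 RPM in A. striatum. Both were also lowest in A. lineatus, at 207 and 193 CPM.

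**Figure D3:**
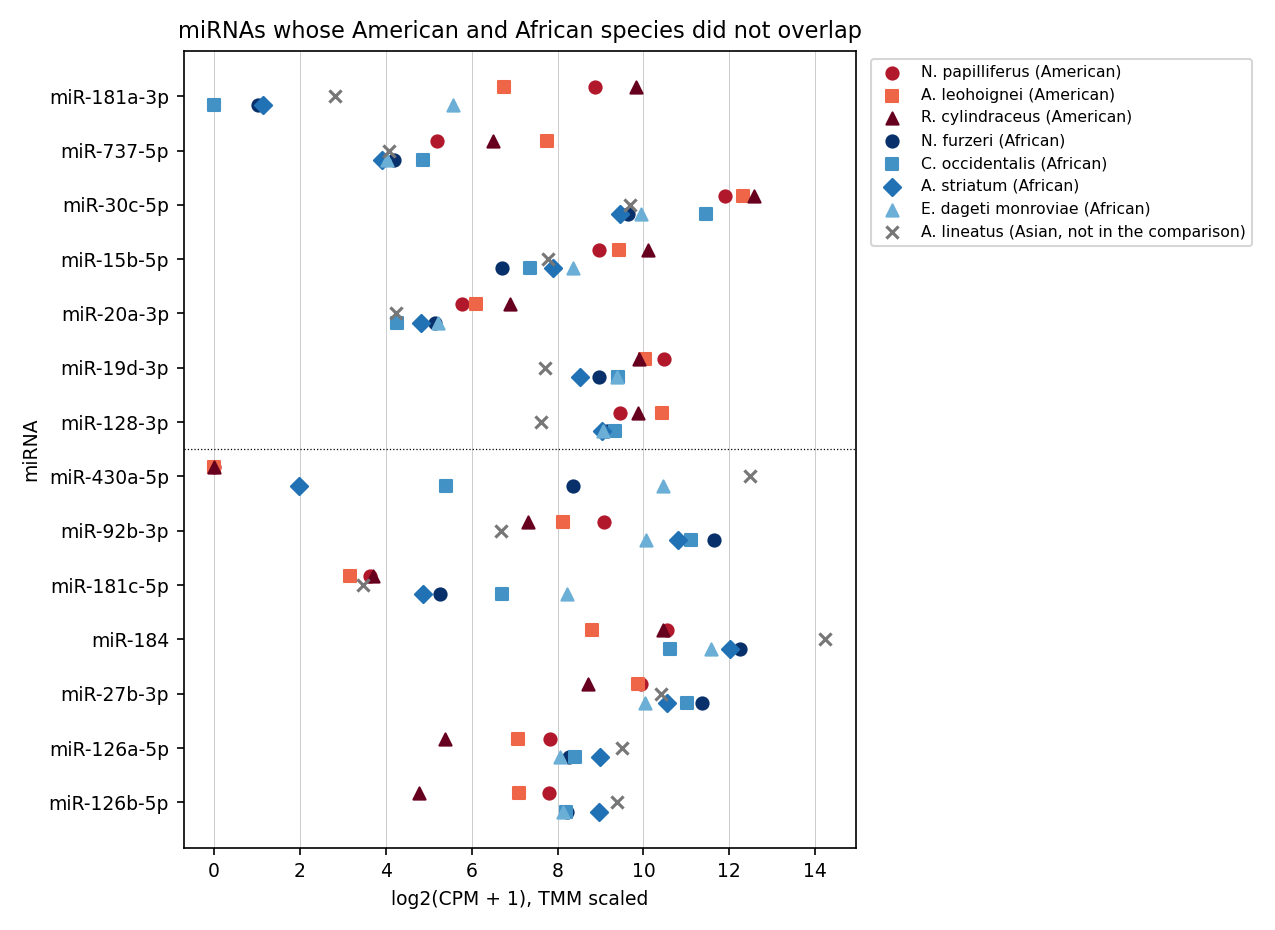
Level of the 14 miRNAs with at least 50 CPM on average whose American (red) and African (blue) species did not overlap, as log2(CPM + 1) on the x axis, 1 row a miRNA and 1 point a species; grey crosses are A. lineatus. The 7 rows above the dotted line are higher in the American species, led by miR-181a-3p (mean 493 against 12.2 CPM), and the 7 below it are lower, led by miR-430a-5p (0 counts in every American species).

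Of the miRNAs that were lower in the American species, miR-430a-5p was not counted at all in them. This is the arm opposite to miR-430a-3p, the most abundant miR-430 in every one of these species but E. dageti monroviae. It had 0 counts in N. papilliferus, A. leohoignei and R. cylindraceus, which allows up to 4.26, 1.14 and 7.20 CPM (3 counts per library), against 3871 counts in N. furzeri, 16 in C. occidentalis, 12 in A. striatum and 1480 in E. dageti monroviae. In CPM the African values were 330, 41.2, 2.92 and 1407. The American level was at least 105.9-fold lower, from the mean American floor of 4.20 CPM against the African mean of 445 CPM, but 29.7-fold without E. dageti monroviae. A. striatum at 2.92 CPM lay below the floors of N. papilliferus and R. cylindraceus, so a difference of these from A. striatum was not detectable at this depth. The edgeR adjusted p was 0.157, between 7.16e-07 (DESeq2) and 0.356 over the alternatives, and the miRNA was called by edgeR with library totals only (0.0250), without a filter (0.0332) and without A. striatum (0.0406).

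The 3p partner was abundant in the American species. miR-430a-3p had 9734, 20569 and 230099 counts in N. papilliferus, A. leohoignei and R. cylindraceus, against 1008867, 5641, 1653861 and 17043 counts in N. furzeri, C. occidentalis, A. striatum and E. dageti monroviae. R. cylindraceus had 230099 counts of the 3p arm beside 0 of the 5p arm, while E. dageti monroviae had 17043 beside 1480, the highest 5p share of the 7 species. A. striatum had 1653861 and 12, and A. lineatus had 94382 and 2879. miR-430c-3p, a further member, had 4502, 92.7 and 32593 CPM in the American species, against 10321, 1841, 184150 and 63123 CPM in the African ones, in the same orders, with overlap (-2.39, SE 1.75, adjusted p = 0.676).

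miR-92b-3p, of the miR-92 family but encoded outside the miR-17-92 cluster in vertebrates, had the next lowest p. It had 540, 277 and 158 CPM in N. papilliferus, A. leohoignei and R. cylindraceus, against 3221, 2209, 1801 and 1059 CPM in N. furzeri, C. occidentalis, A. striatum and E. dageti monroviae. The American mean was 325 CPM ± 195 (SD, n = 3) and the African mean 2072 CPM ± 901 (n = 4), which differed by -2.67 on the log2 scale (SE 0.70, edgeR adjusted p = 0.157). Over the alternatives it lay between -3.24 and -1.99, with an adjusted p from 0.00596 (DESeq2) to 0.407, and was -2.53 within lane 1. The family's main member pointed the other way: miR-92a-3p had 44398, 95501 and 128430 CPM in the American species, against 44057, 32854, 45761 and 62864 CPM in the African species, with overlap (0.95, SE 0.80, adjusted p = 0.679). A. lineatus had 102 CPM of miR-92b-3p, below all 3 American species.

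miR-181c-5p had 11.4, 8.01 and 11.999 CPM in N. papilliferus, A. leohoignei and R. cylindraceus, against 37.5, 103, 28.2 and 297 CPM in N. furzeri, C. occidentalis, A. striatum and E. dageti monroviae (log2 fold change -3.49, SE 1.103, adjusted p = 0.157). The American values rest on 8, 21 and 5 counts, and the N. furzeri libraries ranged from 1.56 to 251 RPM, with a median of 5.10 RPM. The highest of them was a lane 1 library in diapause, and without it N. furzeri was at 9.72 CPM, inside the American range of 7.80 to 11.7 CPM in that fit, so that the continents overlapped (log2 fold change -3.40, adjusted p = 0.211). With limma it was -2.27. The abundant miR-181b-5p overlapped (log2 fold change 0.09, SE 0.83).

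miR-184, known from the lens and cornea, had 1500, 444 and 1406 CPM in N. papilliferus, A. leohoignei and R. cylindraceus, against 4857, 1584, 4110 and 3064 CPM in N. furzeri, C. occidentalis, A. striatum and E. dageti monroviae (-1.61, SE 0.67, adjusted p = 0.307). N. papilliferus and C. occidentalis, both annual and in diapause, differed by 1500 against 1584 CPM. miR-27b-3p, known from endothelium and from muscle differentiation, had 990, 937 and 420 CPM in the American species, against 2631, 2068, 1499 and 1047.5 CPM in the African species in the same orders (-1.21, SE 0.61, adjusted p = 0.509). Within lane 1 the log2 fold changes were smaller by over 1.5 times, at -0.98 for miR-184 and -0.80 for miR-27b-3p. With library totals only that of miR-27b-3p was -0.36 and its species overlapped.

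miR-126a-5p and miR-126b-5p, arms of the endothelial miR-126 hairpins, had nearly equal counts (mean log2 ratio 0.10, SD 0.16), so reads may be shared between them and neither value is certain. miR-126a-5p had 226, 133.45 and 40.8 CPM in N. papilliferus, A. leohoignei and R. cylindraceus, against 306, 340, 508 and 266 CPM in N. furzeri, C. occidentalis, A. striatum and E. dageti monroviae (-1.41, SE 0.76, adjusted p = 0.529). miR-126b-5p gave -1.42 (SE 0.81, adjusted p = 0.577), and within lane 1 the values were -0.88 and -0.84. The 3p arm miR-126b-3p, with 531, 399 and 199.2 CPM in the American species, against 156, 564, 249 and 350 CPM in the African species, overlapped (0.20, SE 0.69).

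Several further miRNAs with an unadjusted p under 0.05 were outside the naming rule, being less abundant or overlapping, and were chosen after their values were seen. Both arms of miR-727, a miRNA described in fish, were higher. miR-727-5p had 41.2, 28.6 and 38.4 CPM in N. papilliferus, A. leohoignei and R. cylindraceus, against 2.04, 0, 1.95 and 2.85 CPM in N. furzeri, C. occidentalis, A. striatum and E. dageti monroviae, and gave the lowest edgeR adjusted p of all 169 (log2 fold change 4.20, SE 0.86, adjusted p = 0.0884). It rests on 29, 75 and 16 counts in the American species and 24, 0, 8 and 3 in the African species, and was called by DESeq2 (adjusted p = 2.79e-05), with counts thinned to 1 depth (0.0330) and without E. dageti monroviae (0.0347), over a range of 3.81 to 4.79. miR-727-3p, with 45.5, 14.1 and 14.4 CPM against 5.28, 0, 1.46 and 1.90 CPM in the same orders, gave 3.24 (SE 0.95, adjusted p = 0.157). No African species reached an American one on either arm, but both arms passed the filter only through the American species. The separation is thus partly set by the filter, as is that of miR-155. miR-155, an immune miRNA, also had no overlap at low counts, with 14.2, 14.1 and 19.2 CPM in the American species, against 2.55, 0, 3.89 and 3.80 CPM in the African species (2.45, SE 0.82, adjusted p = 0.174). miR-2188-5p, the fifth without overlap under 50 CPM, did not have an unadjusted p under 0.05 and was also chosen after its values were seen. It was lower, with 24.1, 24.8 and 26.4 CPM in the American species, against 106.4, 38.6, 28.5 and 52.3 CPM in the African species (-1.18, SE 0.81, adjusted p = 0.650).

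miR-146a, a miRNA induced by innate immune signals in mammals, was lower in the American species than in 3 African ones. It had 503, 151 and 57.6 CPM in N. papilliferus, A. leohoignei and R. cylindraceus, against 3184.5, 5320 and 4834 CPM in N. furzeri, C. occidentalis and A. striatum and 216.7 CPM in E. dageti monroviae (-3.84, SE 1.14, adjusted p = 0.157). E. dageti monroviae lay inside the American range, and without it the miRNA was called (-4.25, adjusted p = 0.0347). miR-733, described in fish, had 0, 5 and 1 counts in the American species, against 254, 18, 19 and 44 counts in the African species (-4.24, SE 1.23, adjusted p = 0.157), and A. lineatus had 0.

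For 3 miRNAs a single American species stood far above the others. miR-31 had 2.84 and 5.72 CPM in N. papilliferus and A. leohoignei and 1068 CPM in R. cylindraceus, against 3.80 to 15.3 CPM in the African species, and its log2 fold change of 5.58 (SE 1.75) became -0.59 without R. cylindraceus. miR-29a, of a family that represses collagen genes, had 606 CPM in A. leohoignei, 17.05 in N. papilliferus and 69.6 in R. cylindraceus, against 7.60 to 39.5 CPM in the African species, and its 3.10 (SE 1.15) dropped to as low as 0.68 when a species was left out. miR-18c, of the miR-17-92 clusters, had 1604 CPM in A. leohoignei, 48.3 in N. papilliferus and 218.4 in R. cylindraceus, against 15.4 to 161 CPM in the African species (2.69, SE 1.12, and as low as 0.46).

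A. lineatus, the Asian species left out of the main fits, was set beside the 19 miRNAs whose continents did not overlap. It lay within or beyond the African edge for 16 of them and within or beyond the American edge for 3, miR-92b-3p, miR-733 and miR-181c-5p. Among the 16 it was outside the African range for miR-430a-5p, miR-184, miR-126a-5p, miR-126b-5p, miR-20a-3p, miR-19d-3p and miR-128-3p. The 19 were chosen because the continents did not overlap, and how often a further species would fall on either side was not tested. All 10 miRNAs that were higher in the American species had an A. lineatus level at or below the highest African one, for example 822 CPM of miR-30c-5p, 217.4 CPM of miR-15b-5p, 5.98 CPM of miR-181a-3p and 0 counts of miR-727-5p. miR-430a-5p was highest of all 8 species in A. lineatus (5742 CPM, 2879 counts), as was miR-184 (19369 CPM). Its library came from pool 3, which held no American library, so pool and continent cannot be told apart in this respect. With A. lineatus added to the African species edgeR called 0 of 174, with 23 at an unadjusted p under 0.05.

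Of the 291 miRNAs, 166 had a count in all 7 species. There were 27 with 0 counts in all 3 American species and a count in some African species, but only miR-125b-3-3p and miR-430a-5p of these had a count in every African species, and miR-125b-3-3p had 4, 1, 1 and 3 counts there. In the other direction, 3 miRNAs were at 0 in the African species and had between 1 and 4 counts in 1 American species (miR-153b-5p, miR-153c-3p and miR-1788-5p). The deepest species sum, N. furzeri, had 272 miRNAs detected, and a count of 0 allows up to 8.07 RPM in R. cylindraceus but 0.168 RPM in N. furzeri, so the numbers of absent miRNAs cannot be told apart from depth.

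The arms of each hairpin were compared within a species, as the log2 ratio of 5p to 3p counts, which does not depend on how the library is scaled. Where an arm had few or 0 counts, the ratio does depend on the pseudocount and the depth. Of 75 hairpins with both arms listed, 37 had at least 20 counts in every species. In 17 the 5p arm dominated in all 7 species, in 14 the 3p arm, and in 6 the dominant arm differed between species. limma called 0 of 37 (0%), with 4 at an unadjusted p under 0.05 (10.8%) and 4 without overlap (10.8%).

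miR-181a gave the lowest p. Its 5p and 3p arms had 17017 and 329 counts in N. papilliferus, 19565 and 278 in A. leohoignei and 1440 and 377 in R. cylindraceus. In the African species the same arms had 282406 and 12 counts in N. furzeri, 3621 and 0 in C. occidentalis, 52939 and 5 in A. striatum and 7478 and 49 in E. dageti monroviae. The 3p arm thus took between 1.40% and 20.7% of the hairpin's counts in the American species and between 0% and 0.651% in the African species, with no overlap. The log2 ratio was 4.59 ± 2.31 (SD, n = 3) and 11.9 ± 3.21 (n = 4), a difference of -7.35 (SE 1.77, limma adjusted p = 0.0631). It was called with a pseudocount of 5 (-6.18, limma adjusted p = 0.0345) and without E. dageti monroviae (-8.92, 0.000746). It was also called with at least 100 counts per hairpin (0.0246), at the same difference but with 23 rather than 37 hairpins tested. It was not called with thinned counts (0.160), within lane 1 (-7.54, 0.328) or without any other 1 species (0.0765 to 0.245). The 5p counts can come from more than 1 miR-181a hairpin, so the ratio is not that of a single precursor.

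miR-221, known from endothelium and paired in the genome with miR-222, leaned the other way. Its 5p and 3p arms had 60 and 356 counts in N. papilliferus, 17 and 1476 in A. leohoignei and 95 and 242 in R. cylindraceus, against 0 and 3598 in N. furzeri, 14 and 2058 in A. striatum and 8 and 786 in E. dageti monroviae; C. occidentalis had 1 count of the 5p arm. A. leohoignei had a ratio of -6.40, just above the -6.53 of E. dageti monroviae (difference between continents 4.96, SE 1.75, limma adjusted p = 0.248). miR-221-5p itself had 85.2, 6.48 and 228 CPM in the American species, against 0, 2.57, 3.41 and 7.60 CPM in the African species, overlapping in A. leohoignei (5.03, SE 1.59, edgeR adjusted p = 0.157).

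The other arm ratios were less clear. miR-430a differed by -6.88 (SE 2.58, limma adjusted p = 0.248) and was called without A. striatum (-9.47, 0.00615), and its American ratios depend on the pseudocount because the 5p arm had 0 counts there. miR-17a, with 4, 6 and 3 counts of the 3p arm in the American species and 1, 0, 2 and 1 in the African species, gave -3.57 (SE 1.39, adjusted p = 0.248) and overlapped. miR-204 had 0 counts of its 3p arm in all 7 species, so its difference of -3.02 follows the raw 5p count alone, and with it the depth of each species. miR-126b was 5p-dominant in 2 species, N. furzeri and A. striatum, and 3p-dominant in the other 5, with ratios of -1.27, -1.56 and -2.86 in the American species, against 0.92, -0.94, 1.0095 and -0.32 in the African species (difference -2.06, SE 1.05, adjusted p = 0.4655). Its 5p reads may be shared with miR-126a-5p, so its ratio and dominant arm are uncertain. miR-20a, outside the 10 hairpins with the lowest p and chosen after its values were seen, was the fourth without overlap, with the 3p arm at 14.4 to 17.7% of counts in the American and 4.16 to 10.6% in the African species (-1.49, SE 0.97, adjusted p = 0.485).

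**Figure D4:**
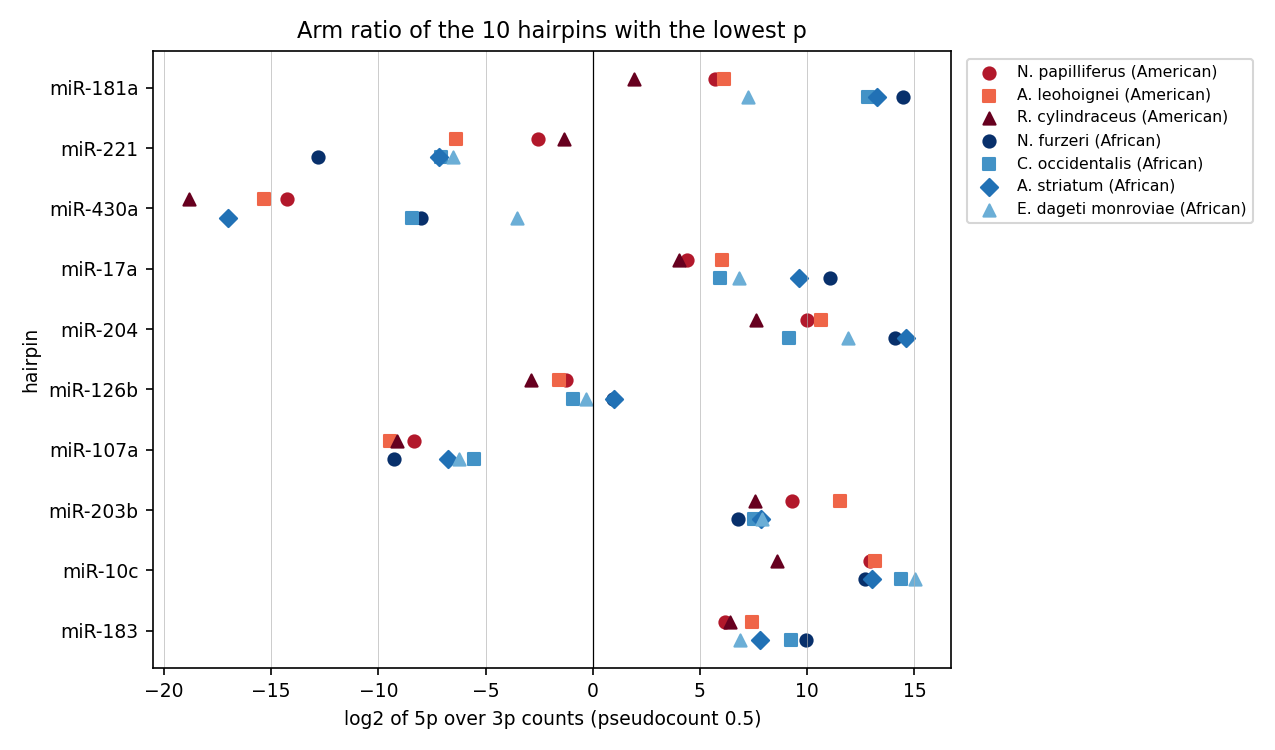
Log2 of 5p over 3p counts (x axis, pseudocount 0.5) for the 10 hairpins with the lowest p (rows), 1 point a species, American species red and African species blue. The American points of miR-181a lie to the left of the African ones (means 4.59 and 11.9) and those of miR-221 to the right, while most other rows overlap. Points beyond about -12 or 12 rest on an arm with few or 0 counts. So do many points inside that range, such as those of miR-204, miR-183, miR-107a and miR-17a.

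The lists of families and tissue miRNAs were described by their counts and medians. The median log2 fold change over all 169 miRNAs was -0.03, with 47.9% above 0; with library totals only it was 0.53, with 109 of 169 above 0, so counts under that scaling are read against this shift. All 6 tested members of the miR-10 family were below 0 (median -1.07), also under each of the other 3 scalings, and 0 of them passed. miR-10b-5p, the main one, had 940420, 147930 and 48055 CPM in N. papilliferus, A. leohoignei and R. cylindraceus, against 1030800, 1410100, 476110 and 178080 CPM in N. furzeri, C. occidentalis, A. striatum and E. dageti monroviae (-1.03, SE 1.45, adjusted p = 0.869). The miR-99, miR-100 and miR-125 families, known with let-7 for rising as tissues differentiate, had 0 of 5 members above 0 (median -0.89). let-7 had 1 of 6 above 0 (-0.67). Relative to the median of all miRNAs, the medians of both lay below it under all 4 scalings, by -0.94 to -0.82 for the first list and by -0.70 to -0.55 for let-7.

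Of the miR-17-92 type families, miR-19 had 5 of 6 members above 0 under all 4 scalings (median 0.69) and miR-18 had 3 of 3 (0.85), while 0 members of either passed. The most abundant, miR-19b-3p, had 1963, 2013 and 1498 CPM in N. papilliferus, A. leohoignei and R. cylindraceus, against 1462, 1501, 966 and 1858 CPM in N. furzeri, C. occidentalis, A. striatum and E. dageti monroviae, with overlap (0.33, SE 0.53). The miR-17, miR-20, miR-93 and miR-106 family had 4 of 6 above 0 (0.34) and the miR-15 and miR-16 family 3 of 4 (0.32). Among the 11 tested miRNAs described mainly in fish, 7 were above 0 (median 0.59), with extremes in both directions, miR-727-5p at 4.20 and miR-733 at -4.24.

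The vascular list (miR-126, miR-23, miR-24 and miR-27) had 2 of 13 members above 0 and 11 below (median -1.21), which is -1.18 relative to all miRNAs. With library totals only it had 7 above and 6 below, and its median lay at -0.47 relative to all miRNAs. The lens list had 0 of 2 above 0 under all 4 scalings (miR-184 at -1.61 and miR-204-5p at -1.91, SE 0.76, adjusted p = 0.289). The sensory list of miR-182, miR-183 and miR-96 had 0 of 3 above 0 (median -0.92). Muscle miRNAs had 1 of 5 above 0 (median -0.60), and relative to all miRNAs this median was -0.57, or -0.23 with library totals only. miR-1 ranged from 1.91 CPM in A. leohoignei to 725.9 CPM in N. papilliferus and from 10.4 CPM in N. furzeri to 1300 CPM in C. occidentalis. The neural list had 7 of 12 above 0 (0.33), the epithelial list 3 of 6 (0.01), the skin list 3 of 4 (0.41) and the cartilage list 4 of 8 (0.10). The cartilage median was 0.13 relative to all miRNAs and 0.45 with library totals only. miR-205-5p, the epidermal marker of the skin list, overlapped, averaging 6967 CPM ± 1658 (SD, n = 3) in the American and 6204 CPM ± 2622 (n = 4) in the African species.

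Blood and immune miRNAs (miR-144, miR-451, miR-142, miR-223, miR-150, miR-155 and miR-146) were the only list whose share of counts did not overlap. They took 0.0443% (Wilson interval 0.0402 to 0.0488%), 0.0741% (0.0692 to 0.0794%) and 0.0605% (0.0531 to 0.0689%) of counts in N. papilliferus, A. leohoignei and R. cylindraceus, against 0.213%, 0.277% (0.265 to 0.289%), 0.371% and 0.106% (0.0976 to 0.115%) in N. furzeri, C. occidentalis, A. striatum and E. dageti monroviae (exact permutation test, two-sided, p = 0.0571, or 0.640 adjusted over 32 lists). Over single libraries the share ran from 0.0641 to 0.468% in N. furzeri, reaching into the American range, and from 0.234 to 0.491% in A. striatum. The members below 0 were miR-146a, the most abundant, and miR-144-5p (-2.84, SE 1.26, adjusted p = 0.365). miR-146a averaged 237 CPM in the American and 3389 CPM in the African species. No other tested member averaged over 39.8 CPM in the American or 157 CPM in the African species. Among the tested members, the difference between these averages lay mostly in miR-146a, but the share of a single species need not follow it. miR-150, at rank 3 of the list by mean level, was not among the tested miRNAs and is in neither average. In E. dageti monroviae, where miR-146a lay inside the American range, miR-144-5p had 568 RPM. The lack of overlap is therefore not shown to be a result of miR-146a, nor of the list as a whole. The share without miR-146a was not computed. The list's median of 1.34 has the opposite sign: miR-223 (1.62, SE 0.82, adjusted p = 0.509), miR-142a-5p and miR-155, named after their values were seen, were above 0. The smallest p that 35 splits of 7 species allow is 0.0286, which a single list could not bring under 0.05 after adjustment over 32, and 0 lists had an exact p under 0.05.

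**Figure D5:**
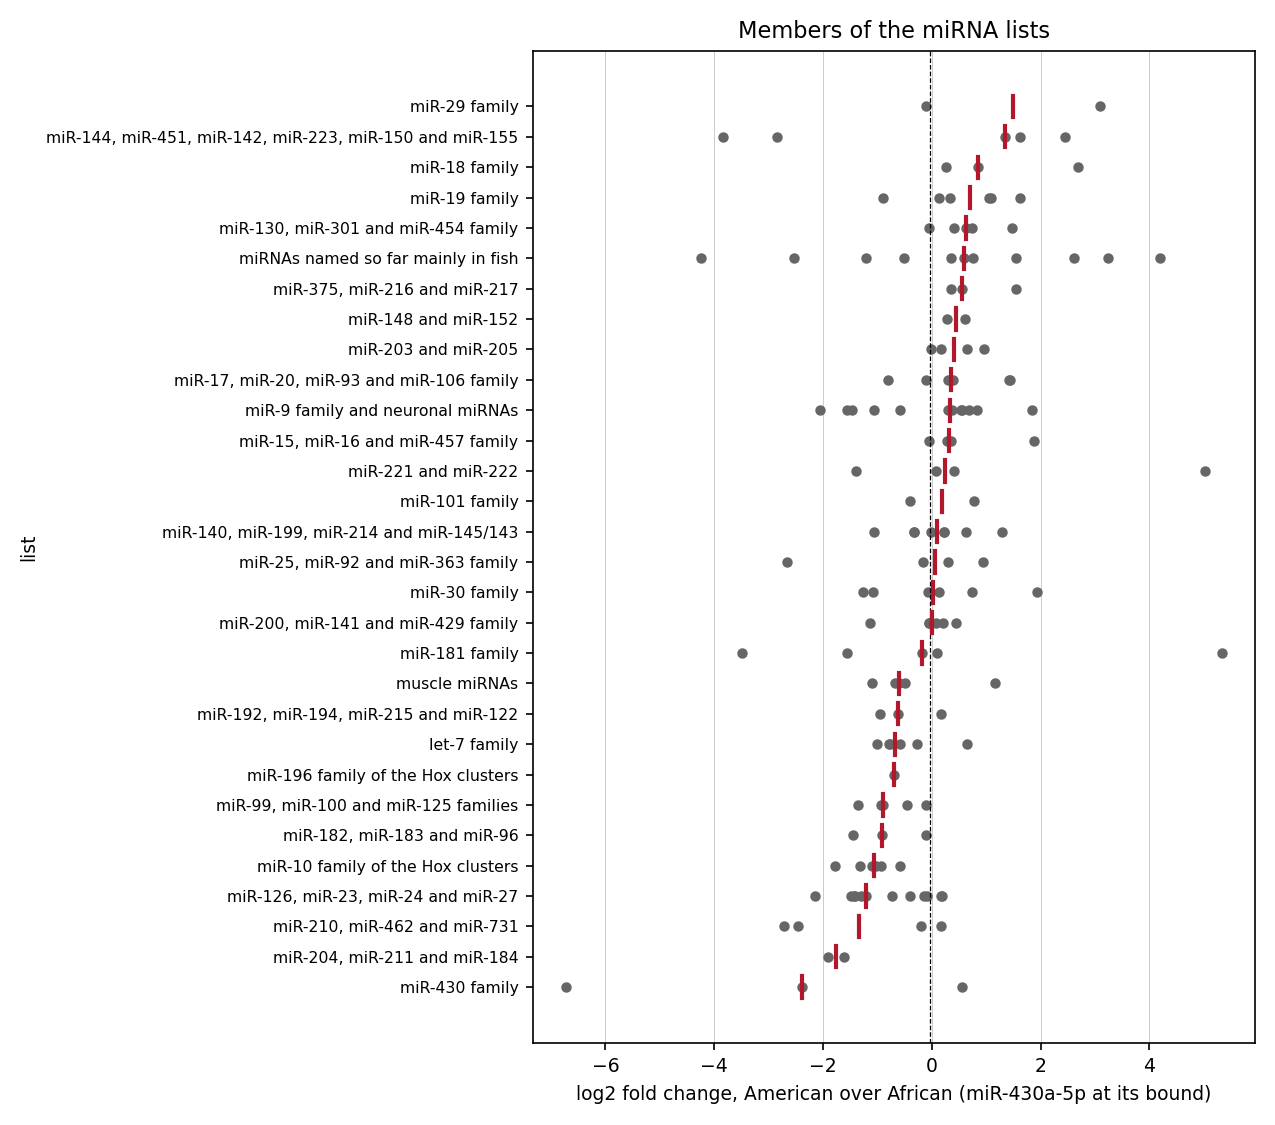
Log2 fold change, American over African species (x axis), of the tested members (grey points) of each list (rows, ordered by median); red bars are medians, the dashed line is the median of all 169 miRNAs (-0.03), and miR-430a-5p is drawn at its bound of -6.73. The miR-10 family, the lens list, the sensory list and the miR-99, miR-100 and miR-125 list lie wholly below 0, as does the 1 tested member of the miR-196 family. The miR-18 family, the list of miR-375, miR-216 and miR-217 and the list of miR-148 and miR-152 lie wholly above it. The list named from miR-144 on also holds miR-146.

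Since each continent had annual and non-annual species, it was asked whether the difference between continents depended on the labelled life style. Every species labelled annual had libraries in diapause, and no species labelled non-annual had any. Only N. furzeri among the annual species also had libraries not in diapause. The interaction term thus contrasts both labels at once, and a part of diapause in it was not tested. The American annual species was N. papilliferus alone, with 1 library. edgeR's interaction term called 0 of 169 (0%), with 4 at an unadjusted p under 0.05 (2.37%), miR-204-5p, miR-219-5p (named after its values were seen), miR-222a-5p and miR-462 (all with adjusted p = 0.934). On simulated data this term called only 4 of 200 miRNAs changed 16-fold, so 0 calls cannot decide whether such a dependence exists. The fit left 3 residual degrees of freedom. miR-204-5p had 304 and 233 CPM in the American species labelled non-annual, A. leohoignei and R. cylindraceus, against 3042 and 1826 CPM in the non-annual African species A. striatum and E. dageti monroviae. In the annual species it had 725.9 CPM in N. papilliferus, against 752 and 721 CPM in N. furzeri and C. occidentalis (interaction 3.16 on the log2 scale, SE 1.09). By these labels the values separated within the non-annual species and lay together within the annual ones, for a miRNA picked by its interaction p. The same division is that into species without and with libraries in diapause. With A. leohoignei counted as annual, its 304 CPM would lie below the other annual values.

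miR-462 shares a cluster with miR-731 that low oxygen and virus infection induce in fish. Also picked by its interaction p, it had the same layout by the labels, and A. leohoignei would again lie below the other annual values. It had 115 and 370 CPM in A. leohoignei and R. cylindraceus, against 3353 and 2454 CPM in A. striatum and E. dageti monroviae, and 259 CPM in N. papilliferus, against 304 and 427 CPM in N. furzeri and C. occidentalis (interaction 3.09, SE 1.25). Across all 7 species its log2 fold change was -2.73 (SE 0.97, adjusted p = 0.192), and that of miR-731 was -2.47 (SE 1.14, adjusted p = 0.412). A. lineatus, non-annual as well, had 576 CPM of miR-462 and 4783 CPM of miR-204-5p. With the life style as a covariate edgeR called 0 miRNAs in the comparison of continents, with 19 at an unadjusted p under 0.05, and among the 4 non-annual species alone it called 0, with 18. With A. leohoignei counted as annual, 7 miRNAs had an unadjusted p under 0.05 for the interaction and 0 were called; with 3 residual degrees of freedom these counts say nothing of stability.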

How the data were processed

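Per the labels' protocols, libraries of whole-embryo small RNA were made with a TruSeq kit. Reads of 18 to 33 nt were used, per the file headers. The submitters' processing notes list Bowtie (1.0.0, 1.1.2), bcl2fastq (1.8.3) and CASAVA (1.8.2). The alignment reference is not given in the sources used here: all species were counted on 1 list of 291 miRNAs, so a species whose miRNA sequence differs from it can lose counts, which was not tested. The authors deposited raw counts per miRNA; the deposited RPM values equalled these counts over the library total (100% within 0.001). The unnamed total line and 2 count columns matching no sample were left out.

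Counts were summed per species. edgeR 4.0.16 (R 4.3.3; filterByExpr, TMM, quasi-likelihood test, Benjamini-Hochberg, threshold 0.05) compared 3 with 4 species; fold changes are American over African. Arm ratios were tested with limma 3.58.1 (pseudocount 0.5, at least 20 counts of both arms), and list shares with two-sided exact permutation (scipy 1.17.1). DESeq2 1.42.0, other scalings, filters, left-out species, runs and depths were alternatives. The naming rule covered miRNAs of at least 50 CPM without overlap, up to 8 in each direction. It also covered the 2 most abundant members of each list and the 10 hairpins with the lowest p. Any miRNA at 0 in 1 group with at least 10 CPM throughout the other was covered too. Not all list members and hairpins under the rule are described. miRNAs named outside it were chosen after their values were seen. The species groups and all lists were chosen with earlier results of these data known. The scripts were tested on simulated data. No label says that libraries came from separate clutches. miRNA sequences were not used here.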

Additional observations from a re-analysis of the deposited data

Results flagged for a closer look

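In 47 sets of 4 African species, the value of 1 species was checked for lying far from the other 3. The limit used is passed by chance in about 1 of 20 sets of normally distributed values. CPM were not put on a log scale and many sets had been chosen by their p, so this rate need not hold here. There were 5 such values. E. dageti monroviae had 46.6 CPM of miR-181a-3p, against 0 to 1.22 CPM in the other African species. C. occidentalis had 2820 CPM of miR-30c-5p, against 700 to 979 CPM. A. striatum had 501 CPM of miR-126b-5p, against 280 to 296 CPM, and 15.3 CPM of miR-31, against 3.80 to 5.15 CPM. N. furzeri had a miR-221 arm ratio of -12.8 on the log2 scale, against -7.15 to -6.53, where its 5p arm had 0 counts and the ratio rests on the pseudocount and the depth.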

How the results depend on the processing

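The count of miRNAs called between the continents, 0, was 1 with library totals only, 1 without a filter (both miR-430a-5p), 1 with counts thinned to the lowest total (miR-727-5p) and 11 with DESeq2. Leaving out each species in turn gave 0 to 3 calls, with 1 without A. striatum and 3 without E. dageti monroviae (miR-181a-3p, miR-146a and miR-727-5p). The other 10 alternatives gave 0. Unadjusted p under 0.05 was met by 14 to 36 miRNAs, but the number tested differed as well. The 14 were of 170 without A. leohoignei and of 156 without A. striatum. The 36 were of 289 without a filter, against 21 of 169 in the main fit. The count of arm ratios called, 0, was 1 with a pseudocount of 5 and 1 with at least 100 counts (miR-181a both times), and 0 to 1 with a species left out. Among single miRNAs, arm ratios and shares, 3 turned sign, all without R. cylindraceus: with each species left out in turn, miR-31 ran from -0.59 to 6.15, the difference in miR-430 share from -14.8 to 17.3 and that in miR-10 share from -39.1 to 0.656 percentage points. The cause was not tested. Of list medians, the vascular one was 0.05 and the muscle one 0.29 with library totals only, a scaling that also moved the median of all miRNAs to 0.53; both stayed below that median. The number of miRNAs without overlap, 19, was 12 with library totals only. It was between 31 and 42 without 1 American species and 70 with the 4 non-annual species alone. Groups of fewer species are more easily free of overlap by chance, and the number tested differed as well. The higher counts therefore cannot be read as a larger difference between the continents. Lane 1 only, for arm ratios and list shares, and leaving out each of the 12 libraries of N. furzeri and A. striatum were chosen after seeing the data; without any 1 of these libraries edgeR called 0. Run as a covariate was not run, because species span runs. No paired analysis was possible because each species gave 1 value and the replicate numbers were only names. Depth limits zeros most in R. cylindraceus and E. dageti monroviae.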
